A study of Homo sapiens with 6 samples.

Results

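The enzymes of glycolysis and of the pentose phosphate pathway were examined in K562 cells that express wild type C/EBPα or its p30 isoform. Of 33 enzymes considered, 32 had a row in the deposited tables, which together hold 17066 gene symbols, and ENO2 was not analysed here. K562 is an established leukemia line of human origin that shows erythroid traits. Its cells had been stably transformed with a PiggyBac transposon carrying a Tet-inducible transgene, which was wild type C/EBPα in the CEBPA line, the p30 isoform in the P30 line and an empty vector in the CTR line. All 3 lines received 200 ng/ml of doxycycline for 48 h, the controls included, and whether a line is 1 clone is not given in the sources used here. RNA was sequenced from 2 replicates a group, or 6 samples in all. The study describes 2 sequencing runs, which differed in Illumina instrument and read length, and an outside institute prepared the libraries of the second. Which sample belonged to which run is not given in the sources used here.

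The values are FPKM (fragments scaled by transcript length and by how many fragments were mapped), with 1 value for each gene and group into which the authors had pooled both replicates. The tables hold neither the depth per sample, for which the study states only a range, nor the value of each replicate, whose correlation it states. The differences below are therefore descriptions without SD, p-value or replicate check. The study itself used Cuffdiff on both replicates and lists the genes called significant, and those calls were not used here. Differences are given on the log2(FPKM + 1) scale, which understates those of low genes, and a gene was compared where either group of the pair exceeded 1 FPKM. A gene was counted as higher or lower when it differed at least 1.5-fold on this scale, and the share of all genes that did so is given as the background. Whether fewer cells of a type or less RNA per cell underlies a lower value cannot be told apart in these bulk samples.

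Glycolysis converts glucose to pyruvate in the cytosol. Its preparatory steps spend ATP to phosphorylate and split the hexose, its later steps regain ATP and NADH, and lactate dehydrogenase reoxidizes the NADH. The pentose phosphate pathway leaves glycolysis at glucose 6-phosphate, and its oxidative arm makes NADPH while its non-oxidative arm interconverts sugar phosphates with ribose 5-phosphate. Red cells draw nearly all their ATP from glycolysis, and in neutrophils NADPH feeds the oxidase of the respiratory burst. Several steps have isoenzymes encoded by separate genes, whose FPKM, being per length, can be set side by side.

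Promoter sequences are shown for the 3 hexokinase genes, whose levels differed in opposite directions, and for ALDOC and TKT. Between CEBPA and CTR, ALDOC of glycolysis and TKT of the pentose phosphate pathway differed at least 2-fold. PKM and TPI1 did so too, but an annotated exon left no bases of their windows to print. PFKFB4 and PDK3, which also differed at least 2-fold, were left out as regulatory enzymes. The sequences printed are the bases before the RefSeq start of each gene, taken from the GRCh38.p14 table of 250 bases before each start. They were matched exactly to GRCh37 and cut where an annotated exon of the gene begins. Capitals mark the letters CCAAT (the CCAAT box), TTNNGNAA (letters common to C/EBP sites), ACGTG and GCGTG (the cores of the hypoxia response element) on either strand.
HK1 (chr10:71029506-71029739, plus strand): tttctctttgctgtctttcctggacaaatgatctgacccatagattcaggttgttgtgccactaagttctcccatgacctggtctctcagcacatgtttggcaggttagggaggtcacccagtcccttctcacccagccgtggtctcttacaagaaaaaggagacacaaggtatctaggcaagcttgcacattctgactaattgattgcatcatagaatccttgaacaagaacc
HK2 (chr2:75061004-75061253, plus strand): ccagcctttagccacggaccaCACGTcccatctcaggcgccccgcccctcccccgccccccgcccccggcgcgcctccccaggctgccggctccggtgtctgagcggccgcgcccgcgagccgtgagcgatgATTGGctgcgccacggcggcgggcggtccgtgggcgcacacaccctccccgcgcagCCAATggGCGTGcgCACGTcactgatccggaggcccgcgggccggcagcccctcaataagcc
HK3 (chr5:176326348-176326597, minus strand): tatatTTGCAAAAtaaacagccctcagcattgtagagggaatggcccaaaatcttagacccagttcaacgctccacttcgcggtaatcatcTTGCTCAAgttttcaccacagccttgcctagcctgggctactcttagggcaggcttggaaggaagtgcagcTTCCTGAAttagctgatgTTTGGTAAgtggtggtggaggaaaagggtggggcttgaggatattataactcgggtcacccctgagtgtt
ALDOC (chr17:26903967-26904163, minus strand): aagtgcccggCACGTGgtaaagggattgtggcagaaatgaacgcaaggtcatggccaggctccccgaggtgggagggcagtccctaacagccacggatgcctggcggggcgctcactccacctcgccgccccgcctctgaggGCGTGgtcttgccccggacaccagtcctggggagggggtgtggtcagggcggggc
TKT (chr3:53290069-53290288, minus strand): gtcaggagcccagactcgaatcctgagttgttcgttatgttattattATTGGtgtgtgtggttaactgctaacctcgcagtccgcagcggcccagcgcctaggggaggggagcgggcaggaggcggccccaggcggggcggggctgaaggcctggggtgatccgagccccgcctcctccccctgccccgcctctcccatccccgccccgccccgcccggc
Distances are counted to the RefSeq start, which for HK1, ALDOC and TKT lies past the last base printed, since exon bases were cut there. The HK3 window held 4 matches to TTNNGNAA, which start 245, 159, 88 and 70 bases before the RefSeq start. The HK2 window held none of these but 2 CCAAT boxes, 118 and 62 bases before the start, with ACGTG at 229 and 48 and GCGTG at 55. In ALDOC the palindrome CACGTG, which holds ACGTG on both strands, lay 240 bases before the RefSeq start and GCGTG lay at 108. TKT had 1 CCAAT box, at 203, and the HK1 window held none of the searched letters. The HK1 gene has several starts, and the FPKM do not tell which of them was used.

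Promoters of 31 of the 32 enzymes were found in the table, that of PFKFB2 being the exception. Over all 250 bases before the start, exon bases included, CCAAT occurred in 14 of 31 (45.2%), against 32.0% of 35116 promoters. By the differences between CEBPA and CTR given below, it occurred in 7 of the 9 enzymes that were higher (HK2, PKM, PDHA1, PDK3, PGD, RPE and TKT) and in 1 of the 9 that were lower (PDHB). TTNNGNAA was found in 8 of 31 (25.8%), against 33.2% of all promoters. It was held by 2 of the 9 higher enzymes, HK3 and PKM, and by 1 of the 9 lower ones, PFKFB4. Of all genes matched to the table, CCAAT was in 33.4% of 1904 higher and 34.6% of 1591 lower ones, and TTNNGNAA in 28.9% and 19.3%. ACGTG occurred in 11 of 31 (35.5%, all promoters 18.5%), GCGTG in 13 of 31 (41.9%, all promoters 32.2%) and CACGTG in 4 of 31 (12.9%, all promoters 6.34%). ACGTG was in 3 higher and 4 lower enzymes, against 410 of the 1904 higher and 318 of the 1591 lower genes. GCGTG was in 5 and 4 (767 and 700 of these genes), and CACGTG in 0 and 3 (142 and 125). A match of letters is a description of the sequence and was not set against any binding data.

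Hexokinases carry out the first phosphorylation of glucose. HK1 (ENSG00000156515, chromosome 10), the main isoenzyme of red cells, had 214 FPKM in CTR and 174 in P30, against 100 in CEBPA. HK2 (chromosome 2), an inducible isoenzyme bound to mitochondria, had 4.13 FPKM in CTR and 6.84 in P30, against 16.7 in CEBPA. HK3 (chromosome 5), the isoenzyme of myeloid cells, stood at 0 in CTR, at 0.137 FPKM in P30 and at 2.58 in CEBPA. HK1 was thus lowest, and HK2 and HK3 highest, in CEBPA, with P30 between CTR and CEBPA for each of the 3 genes.

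On the log2 scale the difference between CEBPA and CTR was -1.09 for HK1, 1.79 for HK2 and 1.84 for HK3. The summed FPKM of the family was 219 in CTR, 181 in P30 and 120 in CEBPA. HK1 made up 98.1% of it in CTR, 96.2% in P30 and 83.8% in CEBPA, while HK2 made up 1.89%, 3.77% and 14.0%. The ratio of HK1 to HK2 was accordingly 52.0 in CTR, 25.5 in P30 and 5.99 in CEBPA. HK1 was the most abundant hexokinase in all 3 groups.

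**Figure D1:**
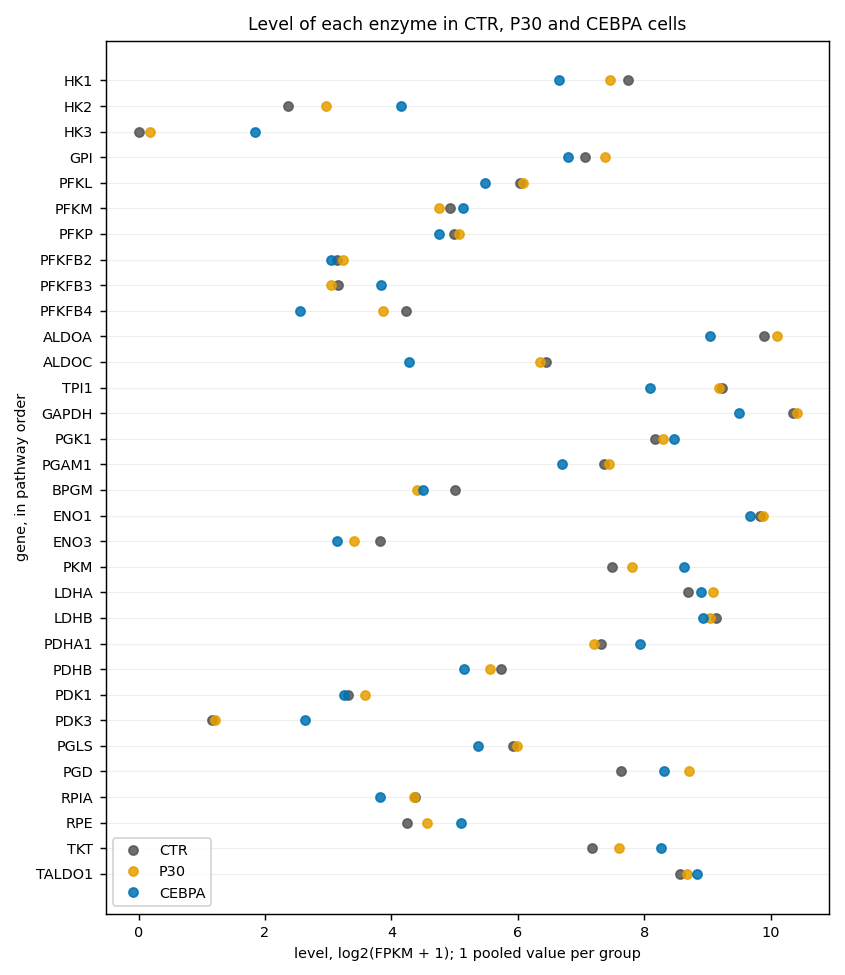
Level of each of the 32 enzymes as log2(FPKM + 1), with 1 point for the pooled value of each group (grey CTR, orange P30, blue CEBPA) and no error bar, since replicates were pooled. CTR and P30 points lie close together for most enzymes, PGD and HK2 being the widest gaps upward, while the CEBPA points of HK1, ALDOC, TPI1 and PFKFB4 lie to the left and those of HK2, HK3, PKM, PDK3 and TKT to the right.

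The isomerase and the phosphofructokinases differed less. GPI, which makes fructose 6-phosphate, had 133 FPKM in CTR and 165 in P30, against 110 in CEBPA, and was counted neither as higher nor as lower in any pair. Phosphofructokinase-1 commits the sugar to glycolysis, and its 3 genes summed to 125 FPKM in CTR and 125 in P30, against 103 in CEBPA. PFKL, the liver type subunit, was the most abundant of them and had 64.5 FPKM in CTR and 66.9 in P30, against 43.4 in CEBPA. Its share of the family was 51.7% in CTR, 53.3% in P30 and 42.0% in CEBPA. The muscle type subunit PFKM had 29.5, 26.1 and 33.9 FPKM in these groups, and its share was 23.6%, 20.8% and 32.8%. PFKP, the platelet type, had 30.7, 32.4 and 26.1 FPKM.

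The PFKFB enzymes set the level of fructose 2,6-bisphosphate, the activator of phosphofructokinase-1. PFKFB4 had 17.8 FPKM in CTR and 13.6 in P30, against 4.86 in CEBPA, a log2 difference of -1.68 for CEBPA over CTR and -1.32 for CEBPA over P30. PFKFB3, whose enzyme strongly favours the kinase reaction, had 7.92, 7.27 and 13.2 FPKM, with log2 differences of 0.67 and 0.78. The ratio of PFKFB3 to PFKFB4 was 0.445 in CTR, 0.533 in P30 and 2.71 in CEBPA, so that the order of these isoenzymes was exchanged in CEBPA. PFKFB2 stayed between 7.21 and 8.43 FPKM in the 3 groups.

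Aldolase splits the hexose, and triose phosphate isomerase interconverts the products. ALDOA, the main aldolase, had 954 FPKM in CTR and 1093 in P30, against 527 in CEBPA. ALDOC, the brain type aldolase, had 86.2, 80.4 and 18.5 FPKM, and its log2 difference of -2.16 for CEBPA over CTR was the widest of all 32 enzymes on this scale, although with a pseudocount of 0.1 that of HK3 was wider, at 4.74. ALDOC is encoded on the minus strand of chromosome 17 from 26900133 to 26903966 (GRCh37). TPI1, the isomerase, had 598 FPKM in CTR and 578 in P30, against 272 in CEBPA. Each of these 3 genes was lower in CEBPA than in both other groups, with log2 differences for CEBPA over P30 of -1.05 for ALDOA, -2.06 for ALDOC and -1.08 for TPI1. In P30 over CTR the same genes differed by 0.20, -0.10 and -0.05.

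The later steps were less uniform. GAPDH, which oxidizes glyceraldehyde 3-phosphate and is widely used as a reference transcript, was the most abundant enzyme in CTR and P30 with 1309 and 1357 FPKM, and had 724 in CEBPA. Its log2 difference was -0.85 for CEBPA over CTR and -0.91 for CEBPA over P30. PGK1, the phosphoglycerate kinase, had 286, 313 and 354 FPKM in CTR, P30 and CEBPA. The mutase PGAM1 had 163, 172 and 103 FPKM, and was lower in CEBPA by log2 differences of -0.66 against CTR and -0.73 against P30. ENO1, the ubiquitous enolase, had 905, 942 and 817 FPKM, and was the most abundant of the enzymes in CEBPA. PKM, the pyruvate kinase gene of most tissues, had 179 FPKM in CTR and 222 in P30, against 394 in CEBPA, which gave log2 differences of 1.13 for CEBPA over CTR and 0.82 for CEBPA over P30. The ratio of GAPDH to PKM was 7.30 in CTR, 6.12 in P30 and 1.84 in CEBPA.

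ENO3, the muscle enolase, had 13.1 FPKM in CTR and 9.64 in P30, against 7.79 in CEBPA. In its exons 111 bases are shared with PFN1 on the opposite strand, which had 727, 792 and 565 FPKM, so that the level of ENO3 is uncertain. The libraries were prepared by a stranded kit, but TopHat was run at its defaults, which do not use the strand, and whether FPKM were computed by strand is not given in the sources used here. BPGM, which makes the 2,3-bisphosphoglycerate that lowers the oxygen affinity of hemoglobin in red cells, had 31.2 FPKM in CTR and 20.1 in P30, against 21.7 in CEBPA. It was the only enzyme counted as lower in P30 than in CTR, with a log2 difference of -0.61, and its difference between CEBPA and P30 was 0.10.

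**Figure D2:**
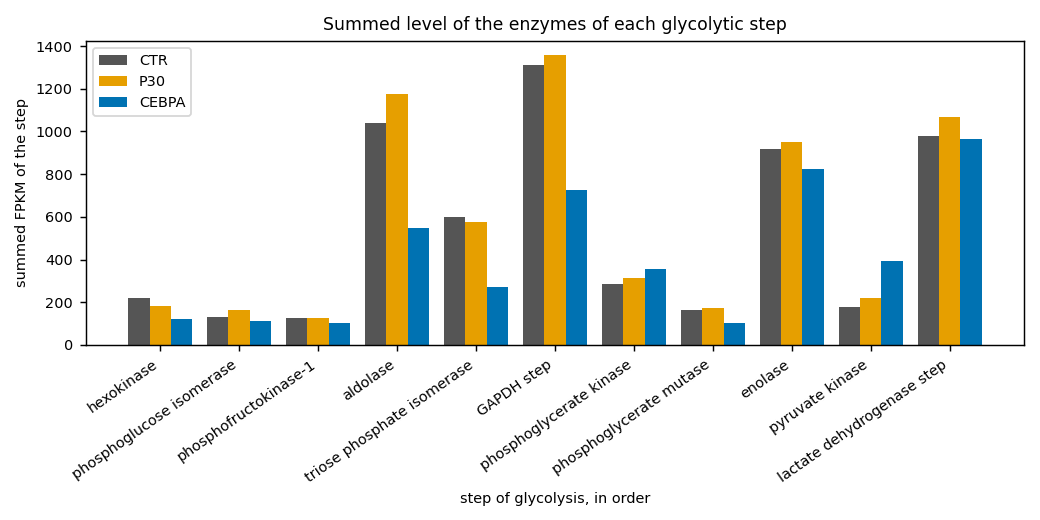
Summed FPKM of the enzymes of each step of glycolysis, in pathway order, in CTR (grey), P30 (orange) and CEBPA (blue), as bars from 0 with no error bar. The bars of aldolase, triose phosphate isomerase and GAPDH are lower in CEBPA, by ratios of 0.524, 0.455 and 0.553 to CTR. The pyruvate kinase bar, drawn from PKM alone, is higher by a ratio of 2.19. The red cell isoenzyme PKLR was left out of it and differed the other way, falling from 55.1 FPKM (CTR) to 19.5 (CEBPA).

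Lactate dehydrogenase had nearly the same summed level in all groups, 977 FPKM in CTR and 1069 in P30, against 963 in CEBPA. LDHA, whose subunit predominates in muscle, had 414, 543 and 478 FPKM. LDHB, the heart type subunit, had 563, 526 and 485 FPKM. The ratio of LDHA to LDHB was 0.736 in CTR, 1.03 in P30 and 0.986 in CEBPA, and neither gene was counted as higher or lower in any pair.

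Pyruvate dehydrogenase admits pyruvate to the tricarboxylic acid cycle. PDHA1, the gene of its E1 alpha subunit on the X chromosome, had 159 FPKM in CTR and 147 in P30, against 244 in CEBPA, with log2 differences of 0.62 for CEBPA over CTR and 0.73 for CEBPA over P30. Its partner subunit, encoded by PDHB, had 52.0, 46.0 and 34.3 FPKM, with differences of -0.59 and -0.41. The ratio of PDHA1 to PDHB was 3.05 in CTR, 3.20 in P30 and 7.11 in CEBPA. Of the exon bases of PDHA1, 19.3% overlap MAP3K15 on the opposite strand, which had 3.42, 2.75 and 4.95 FPKM. The kinases PDK1 and PDK3 inhibit this complex. PDK1 had 8.93, 11.0 and 8.52 FPKM, while PDK3 had 1.24 in CTR, 1.32 in P30 and 5.23 in CEBPA. The share of PDK3 in the sum of these 2 kinases was 12.2%, 10.8% and 38.0%. With PDK2, which had 9.77, 8.09 and 3.07 FPKM, and the low PDK4 in the sum, it was 6.08%, 6.42% and 30.7%.

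**Figure D3:**
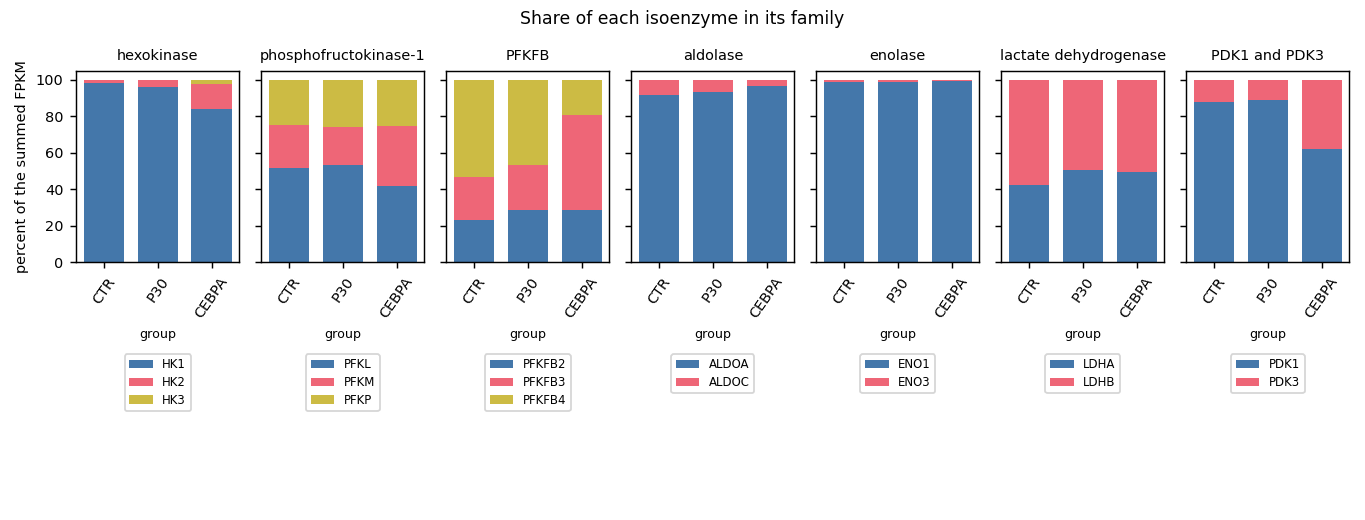
Share of each isoenzyme in the summed FPKM of those shown for its family, in percent, for CTR, P30 and CEBPA, with the last panel limited to PDK1 and PDK3; each bar adds up to 100% but for rounding. HK2, PFKFB3 and PDK3 take larger shares in CEBPA (14.0%, 52.2% and 38.0%) than in CTR (1.89%, 23.6% and 12.2%), and enolase stays almost wholly ENO1.

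In the oxidative pentose phosphate arm, PGD stood apart from the other enzymes. PGD, the 6-phosphogluconate dehydrogenase that forms NADPH (chromosome 1), had 198 FPKM in CTR and 416 in P30, against 316 in CEBPA. It was highest in P30, with a log2 difference of 1.06 for P30 over CTR, 0.67 for CEBPA over CTR and -0.40 for CEBPA over P30. No other enzyme differed by 2-fold or more between P30 and CTR. PGLS, the lactonase of the preceding step, had 60.0, 62.1 and 40.2 FPKM.

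In the non-oxidative arm, TKT, the transketolase, had 143 FPKM in CTR and 194 in P30, against 306 in CEBPA. Its log2 difference was 1.09 for CEBPA over CTR and 0.66 for CEBPA over P30. RPE, the epimerase, had 17.9, 22.7 and 33.3 FPKM, with differences of 0.86 and 0.54. TALDO1, the transaldolase, was the most abundant of this arm and had 379, 407 and 453 FPKM. RPIA, the isomerase that yields ribose 5-phosphate, was lower in CEBPA, with 19.7 FPKM in CTR and 19.6 in P30, against 13.1 in CEBPA, but its log2 difference of -0.56 was not counted. The arm as a whole summed to 560 FPKM in CTR and 644 in P30, against 806 in CEBPA.

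Over all enzymes, 9 of 32 were higher and 9 were lower in CEBPA than in CTR. HK3, among the higher ones, exceeded 1 FPKM only in CEBPA, so that it could not have been counted as lower. The background was 24.0% of 13673 genes higher and 18.6% lower, so that the share of higher enzymes (28.1%) was close to the background and that of lower ones (28.1%) was above it, which was not tested. At 2-fold or more, 5 were higher (HK2, HK3, PKM, PDK3 and TKT) and 4 were lower (HK1, PFKFB4, ALDOC and TPI1), against 14.0% and 6.92% of all genes. With both groups rescaled to the same summed FPKM, 9 enzymes were higher and 6 lower, since ENO3, PDHB and PGAM1 were no longer counted, against 27.3% and 14.9% of all genes, and at 2-fold 5 were higher and 3 lower. The median difference of the enzymes was -0.18, with a range from -2.16 to 1.84, and that of all genes was -0.01. PDHB at -0.59 lay just inside the limit of 1.5-fold, and PGLS at -0.57 and PFKL and RPIA at -0.56 just outside.

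The enzymes are abundant as a group, with a median of 75.3 FPKM in CTR against 6.71 over all rows. Of genes with over 100 FPKM in CEBPA or CTR, 26.0% were lower and 14.3% higher, and among the 15 enzymes at this level 5 were lower (33.3%) and 4 higher (26.7%). At 2-fold or more, 2 of these 15 were lower (HK1 and TPI1) and 2 higher (PKM and TKT), against 9.52% and 8.77% of such genes. Their median difference was -0.15, against -0.25 for all such genes, a comparison added after the values had been seen. The enzymes together took 1.07% of the summed FPKM in CTR and 1.15% in P30, against 0.987% in CEBPA.

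In CEBPA over P30, 7 of 32 enzymes were higher and 9 lower, against 22.3% and 17.8% of 13569 genes. HK3 was again among the higher ones and again exceeded 1 FPKM only in CEBPA. At 2-fold or more 3 were higher (13.1% of all genes) and 4 lower (5.79%). The median was -0.24 for the enzymes and -0.04 for all genes. GPI (-0.58) and PFKL (-0.61), PGLS (-0.61) and RPIA (-0.55) lay on both sides of the limit of 1.5-fold. With the groups rescaled as above, 8 were higher and 7 lower, against 25.9% and 13.1% of all genes, and at 2-fold 3 were higher and 2 lower. Above 100 FPKM, 5 of 15 enzymes were lower and 3 higher, against 24.9% and 13.5% of genes at this level, and at 2-fold 2 were lower and 0 higher, against 9.43% and 8.19%. This comparison uses the same CEBPA libraries as that with CTR.

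P30 and CTR differed little. HK2 and PGD were higher and BPGM was lower among the 31 enzymes compared, against 2.69% of 12395 genes higher and 2.63% lower. At 2-fold or more there was 1 enzyme higher, PGD, and 0 lower, where 1.02% and 0.613% of all genes were called. Among the 15 enzymes over 100 FPKM, PGD was the only one counted at either limit, where 1.81% of such genes were higher and 1.81% lower at 1.5-fold, and 0.632% and 0.361% at 2-fold. No test stands behind these counts, including the count of 0. HK3 has no row in the table of this pair, and from the other tables its log2 difference was 0.18. HK2 had a log2 difference of 0.61, TKT 0.44, LDHA 0.39, ENO3 -0.40 and PFKFB4 -0.36, and the median was 0.06 for the enzymes and 0.02 for all genes.

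**Figure D4:**
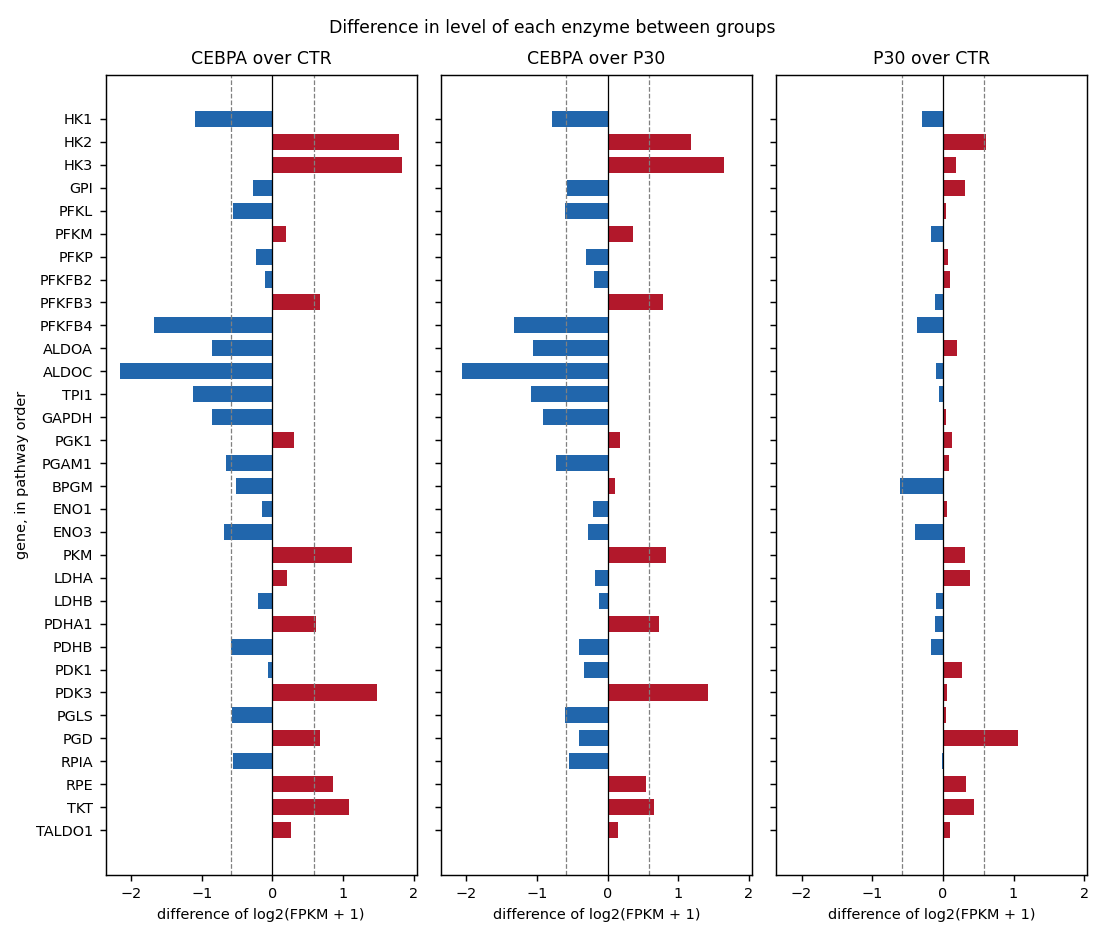
Difference of log2(FPKM + 1) for each enzyme in pathway order, for CEBPA over CTR, CEBPA over P30 and P30 over CTR (red higher, blue lower); dashed lines mark 1.5-fold. In both comparisons with CEBPA, which share the CEBPA libraries, the blue bars of PFKFB4 to GAPDH form a block, and in P30 over CTR the bar of PGD is the only one beyond 1.

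**Figure D5:**
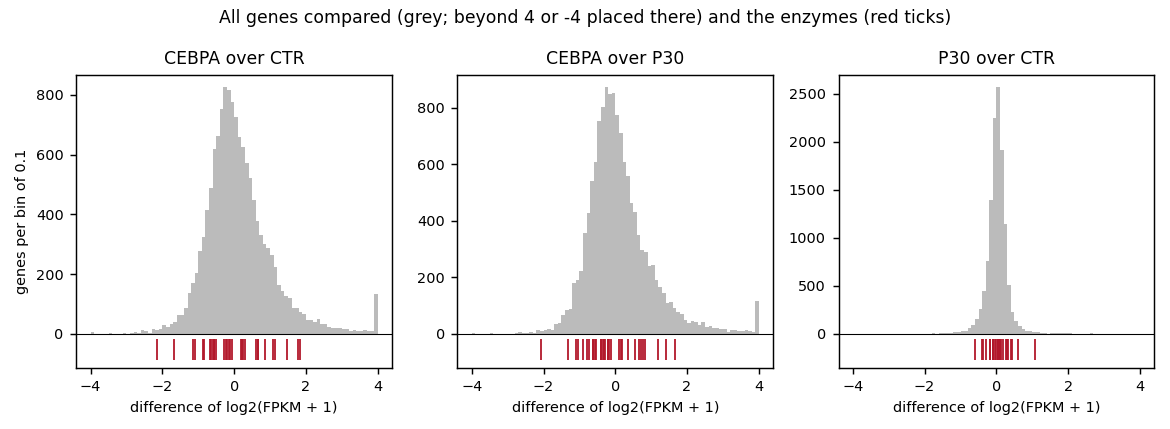
Number of genes per bin of the log2 difference for all genes compared (grey) in each pair, with the enzymes as red ticks below. The enzymes spread from -2.16 to 1.84 in CEBPA over CTR and from -0.61 to 1.06 in P30 over CTR, where the tick of PGD lies apart from the others on the right.

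Other genes of sugar metabolism were described from lists, as counts at 1.5-fold for CEBPA over CTR. The background for these counts was 24.0% of all genes higher and 18.6% lower, or 27.3% and 14.9% after rescaling. For CEBPA over P30 it was 22.3% and 17.8%, and for P30 over CTR 2.69% and 2.63%. The counts of these short lists were not tested against it. Of 8 compared genes of hexose and lactate transport, 5 were higher and 3 lower, with a median log2 difference of 0.96. SLC2A1 (GLUT1), the glucose carrier of red cells, had 69.9 FPKM in CTR and 49.7 in P30, against 26.2 in CEBPA, whereas SLC2A3 (GLUT3) had 20.6, 28.4 and 43.3. The ratio of SLC2A1 to SLC2A3 was thus 3.39, 1.75 and 0.605. SLC2A14 had 2.01, 3.58 and 6.92, and as it closely resembles SLC2A3 the levels of both are uncertain. BSG, the chaperone of lactate carriers, had 534, 488 and 265 FPKM, and the lactate exporter SLC16A3 had 1.85, 6.38 and 7.77. Of 7 compared other glycolysis genes, 4 were higher and 2 lower, with a median of 0.77, which turned to -0.78 above 5 FPKM. Above 5 FPKM, 1 was higher and 2 were lower, in CEBPA over P30 as well. Of the higher ones HKDC1, a further hexokinase gene, had 0.0953, 0.0124 and 3.77 FPKM, and GCKR, the glucokinase regulator, had 0.204, 0.0707 and 2.19. C12orf5, also among the higher ones, had 0.495, 0.471 and 1.55 FPKM. HKDC1, GCKR and C12orf5 exceeded 1 FPKM only in CEBPA, so that they could not have been counted as lower. PKLR, the red cell pyruvate kinase, was among the lower ones, with 55.1, 53.6 and 19.5 FPKM. The ratio of PKM to PKLR was 3.26 in CTR, 4.14 in P30 and 20.2 in CEBPA.

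Of 7 compared other pentose phosphate genes, 2 were higher and 1 was lower (2 and 0 after rescaling), with a median of 0.19. Of the higher ones H6PD, the NADPH-forming dehydrogenase of the endoplasmic reticulum, had 5.85 FPKM in CTR and 6.04 in P30, against 18.8 in CEBPA. The other, RBKS, had 0.828, 0.742 and 2.02 FPKM. RBKS exceeded 1 FPKM only in CEBPA, so that it could not have been counted as lower. Of 10 genes of pyruvate entry to mitochondria, 1 was higher (PDP1, a phosphatase that reactivates pyruvate dehydrogenase, with 1.00, 0.875 and 5.85 FPKM) and 2 were lower, among them PDK2, and the median was 0.11. After rescaling, 2 genes of this list were higher and 1 lower. Of 2 gluconeogenesis genes compared, PCK2, the mitochondrial phosphoenolpyruvate carboxykinase, was lower, with 58.2, 52.6 and 18.9 FPKM, and the median was -0.97. In CEBPA over P30 the counts were 4 higher and 2 lower for transport, 4 and 2 for other glycolysis, 2 and 1 for other pentose phosphate, 1 and 1 for pyruvate entry, and 0 and 1 for gluconeogenesis genes. Among the higher ones SLC2A6, HKDC1, GCKR, C12orf5, RBKS and PDP1 exceeded 1 FPKM in CEBPA but not in P30, so that they could not have been counted as lower. In P30 over CTR, 2 transport genes, SLC16A3 and SLC2A14, were higher, and 0 genes of these lists were lower.

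Markers of cell type and of proliferation moved with the CEBPA group as well. Their counts at 1.5-fold have the same background shares as those of the lists above. Of 14 erythroid markers listed, HBG2, HBE1, HBZ and GYPB had no usable row, and 10 were compared. Of the 10 compared, 8 were lower in CEBPA than in CTR (median -1.67). The summed level of the 10 was 2087 FPKM in CTR and 1495 in P30, against 800 in CEBPA, so that the erythroid features of K562 were present in CTR. Of 10 compared granulocyte markers, 7 were higher and 1 was lower (median 2.67). Among the higher ones LTF, CEBPE, FCGR1A, S100A8 and S100A9 exceeded 1 FPKM in CEBPA but not in CTR, so that they could not have been counted as lower. Of 14 granulocyte markers listed, MPO, ELANE and CTSG had no usable row. The sum over the 11 with a row was 42.3 FPKM in CTR and 107 in P30, against 8491 in CEBPA, nearly all of it from S100A8 and S100A9. Of 20 proliferation genes, 11 were lower and 0 higher (median -0.66), with a sum of 2002, 2183 and 1386 FPKM. The 4 megakaryocyte markers summed to 12.7, 13.4 and 63.7, mostly from PPBP in CEBPA, with GP9 listed at 0 in CTR and PF4 at 0 in P30. In P30 over CTR, 6 of 8 compared granulocyte markers were higher and 0 lower (median 1.93). Of these 6, CEBPE, S100A8 and S100A9 exceeded 1 FPKM in P30 but not in CTR, so that they could not have been counted as lower. In the same pair 2 of 10 erythroid markers were lower and 0 higher (median -0.28), namely ALAS2 with 149 FPKM in CTR and 44.7 in P30 and HBG1 with 872 and 410. None of the 20 proliferation genes was counted. The part of these differences in those of the enzymes was not tested.

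Reads of near-identical copies could add to several enzymes. The tables hold 6 rows named as pseudogenes of ENO1, GAPDH, LDHA, PKM or TPI1, none above 2.28% of its parent gene in any group.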

How the data were processed

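The RNA-seq comprised 6 K562 samples, with CTR, CEBPA and P30 in 2 replicates each. The deposited FPKM were made by the authors, who aligned reads to hg19 by TopHat, assembled transcripts by Cufflinks on Gencode and ran Cuffdiff; the submitters' processing notes also name CASAVA 1.4 and TopHat2 2.0. In the 3 tables a gene has 1 FPKM for each group, pooled over replicates, and how its rows were selected and libraries were scaled is not given in the sources used here. A group's value was the same in both tables that list it for all symbols that occur once (14712 in CTR, 14614 in P30 and 16586 in CEBPA). The tables give no depth, so no interval is given.

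Differences of log2(FPKM + 1) were computed where either group of a pair exceeded 1 FPKM, and counted at 1.5-fold and 2-fold. No test was run. Isoenzyme shares and sums use FPKM as deposited. Every enzyme with a row is named, and from the other lists genes that differed at least 2-fold between CEBPA and CTR. GP9, PF4, GYS1, PFN1, MAP3K15, SLC2A6, C12orf5 and RBKS were named after their values had been seen. The members and lists were chosen with earlier results of these data known. Alternatives were another pseudocount, centring, rescaling, other filters, summed rows, shared symbols and further isoenzymes. The computation was tested on simulated data. Positions are from Gencode on GRCh37, a later release than the authors'. Python 3.11.15, numpy 2.4.6, pandas 2.3.3 and matplotlib 3.10.9 were used.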

Additional observations from a re-analysis of the deposited data

How the results depend on the processing

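No paired analysis was possible because replicates are merged into 1 deposited value for each group, and leaving out a replicate could not be run for the same reason. In the absence of replicate error, the limits set for a value were a change of 0.20 on the log2 scale (the scaled median absolute deviation of P30 over CTR), 1.5 times for a count or sum, and 5 percentage points for a share. Of 1377 recomputed values, 1332 stayed within these limits. Rescaling each group to the same summed FPKM added 0.11 to every ratio of CEBPA over CTR and 0.13 to every ratio of CEBPA over P30 on the log2 scale. With it, 2 in place of 4 enzymes were at least 2-fold lower in CEBPA than in P30, and the sign of PDK1 in CEBPA over CTR turned from -0.06 to 0.04 and that of LDHB in CEBPA over P30 from -0.12 to 0.02.

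With pseudocount 0.1, the difference of CEBPA over CTR was 4.74 for HK3, 1.99 for HK2 and 2.00 for PDK3, and that of CEBPA over P30 was 3.50 for HK3 and 1.90 for PDK3. The median of the other glycolysis genes depended on the filter: it was 0.77 in CEBPA over CTR and 0.69 in CEBPA over P30, but -0.78 and -0.73 above 5 FPKM, and -0.54 and -0.07 over symbols in all 3 tables, settings that compare fewer genes. With only enzymes over 100 FPKM, an alternative added after the data had been seen, the counts at 1.5-fold were 4 higher and 5 lower in CEBPA over CTR, 3 and 5 in CEBPA over P30, and 1 and 0 in P30 over CTR. At 2-fold they were 2 and 2 in CEBPA over CTR, and 0 and 2 in CEBPA over P30, again over fewer genes. With PDK2 and PDK4 added to the sum, also chosen after the data had been seen, the share of PDK1 was 43.9% in CTR, 53.2% in P30 and 50.1% in CEBPA, against 87.8%, 89.2% and 62.0%, and that of PDK3 was 6.08% in CTR and 30.7% in CEBPA. No stage sum or isoenzyme share moved beyond the limits when pseudogene rows, or isoenzymes of the other glycolysis genes, were added.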

Other observations

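Glycogen genes that were counted as different between CEBPA and CTR were all higher in CEBPA. Of 15 compared, 7 were at least 1.5-fold higher and 0 lower, where 24.0% of all genes were higher and 18.6% lower. GYS2, among these 7, exceeded 1 FPKM only in CEBPA, so that it could not have been counted as lower. Above 5 FPKM, 6 were higher and 0 lower. GYG1, the glycogenin that primes glycogen synthesis, had 16.3 FPKM in CTR and 16.5 in P30, against 123 in CEBPA. UGP2, which makes UDP-glucose, had 44.2, 64.1 and 151 FPKM. PYGL, the liver type glycogen phosphorylase, had 19.8 FPKM in P30 and 33.0 in CEBPA, with a log2 difference of 1.39 for CEBPA over CTR, and GYS2, the liver type synthase, had 0.0125, 0.0195 and 2.57 in CTR, P30 and CEBPA. The ubiquitous synthase GYS1 stayed near its level, with 25.6, 26.5 and 22.8 FPKM. The median log2 difference of the list was 0.41, against -0.01 for all genes. In CEBPA over P30 the median of the list was 0.57, but 0.11 above 5 FPKM. No test was run, and the pooled values allow no replicate check.

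The tricarboxylic acid cycle list moved little as a whole, with 1 of 18 genes higher, 3 lower, a median log2 difference of -0.14, and summed levels of 1470 FPKM in CTR and 1453 in P30, against 1480 in CEBPA. Inside it, FH, the fumarase, had 126, 130 and 271 FPKM, and IDH2, a mitochondrial isocitrate dehydrogenase that forms NADPH, had 64.9, 71.5 and 21.9. Of 12 regulators of glycolysis genes, 2 were higher and 3 lower, with a median of 0.05, but 5 were higher and 1 lower after both groups were rescaled to the same summed FPKM. For both lists the background was 24.0% of all genes higher and 18.6% lower, or 27.3% and 14.9% after rescaling. EGLN1, a prolyl hydroxylase that marks HIF for degradation, had 22.2, 27.3 and 64.7 FPKM, and TXNIP, an inhibitor of glucose uptake, had 223, 239 and 91.1.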
